A study of Mus musculus with 12 samples.

Results

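The core circadian clock was described here through 10 genes, namely the activators Arntl, Clock and Npas2, the repressors Per1, Per2, Per3, Cry1, Nr1d1 and Nr1d2, and the output gene Dbp. They were chosen by symbol, as genes of the clock, with earlier results of these data known. All 10 were found among the 55453 genes of the count file, and all 10 had enough counts to be among the 18311 genes tested. The lowest count of any of them in any library was 59, for Npas2.

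RNA-Seq was performed on skin of 12 C57/BL6 mice harvested at day 21, with 3 mice in each of 4 groups. WT PBS mice (numbers 159, 160 and 161) and WT BLM mice (145, 146 and 147) carried wild-type Thy-1 and received PBS or bleomycin. KO PBS mice (136, 137 and 139) and KO BLM mice (141, 143 and 144) were Thy1-knockout animals given the same injections. Bleomycin is an agent that breaks DNA and, given under the skin, is used to model the skin fibrosis of systemic sclerosis. It was injected daily at 10 mg/kg into the back skin. The deposited design speaks of treatment over 21 days, while the methods give a shorter longest course of injections, so whether dosing went on up to the harvest is not known here. The methods describe the knockout mice as females of 8 to 12 weeks and the controls as littermates, and they give no age for the WT mice of this experiment. The knockout is in every cell rather than in 1 cell type, and all groups shared the C57/BL6 background. The mice lived under 12 hours of light and 12 hours of dark, and the time of day at harvest was not given in the sources used here. Each library therefore shows the clock of 1 mouse at 1 unstated hour, and a rhythm cannot be drawn from these data. An unequal hour of harvest among the groups cannot be told apart from an effect of the treatment or genotype.

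In the textbook clock, the proteins of Arntl and Clock (or its relative Npas2) pair and switch on genes that carry E-boxes, among them the Per and Cry genes, Nr1d1, Nr1d2 and Dbp. The PER and CRY proteins then return to the nucleus and block that pair, while the nuclear receptors encoded by Nr1d1 and Nr1d2 repress Arntl, so Arntl messenger RNA peaks at about the opposite phase to Nr1d1 and Dbp. Skin cells hold such clocks, which are set by light through the brain and by hormones and feeding, and clock genes are known to vary with the hair cycle as well as with the hour.

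Library totals ran from 26473700 to 38890450 counts. Thy1, the targeted gene, was counted in every library, at 123 ± 23.7 CPM (the count divided by the scaled library total, mean ± SD, n = 3) in WT PBS and 332 ± 93.8 CPM in WT BLM skin, against 73.3 ± 25.9 CPM in KO PBS and 103 ± 22.4 CPM in KO BLM skin. The knockout values lay below the WT values of the same treatment in every mouse, without passing edgeR's test (adjusted p = 0.224 under PBS and 0.112 under bleomycin). Counts per gene do not show which part of the gene was read, so this is a limited check of the labels. The epidermal and fibroblast marker lists were present in every library. The libraries did not divide by group in their growing-hair genes (hair keratins, inner root sheath genes and their regulators, 19 of 20 listed tested). The summed level of that list was 47150 to 67100 CPM in the WT PBS mice and 53.8 to 828 CPM in the WT BLM mice, and it ran from 44.7 to 75960 CPM in the KO PBS mice and from 3601 to 36110 CPM in the KO BLM mice. The library of KO PBS mouse 136 stood at 75960 CPM, like the WT PBS mice, whereas KO PBS mice 137 and 139 stood at 44.7 and 208 CPM, and KO BLM mouse 141 had the highest sum of its group. Tests of the clock genes are therefore given with and without mouse 136. The share of counts on mitochondrial genes was 1.40% to 2.59%.

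Per length, the 10 genes covered a wide range of levels. Averaged over the 12 libraries, Nr1d1 was the most abundant at 48.3 CPM per kilobase of exon, followed by Dbp at 38.1, Per1 at 22.9, Nr1d2 at 15.5 and Per3 at 7.69 CPM per kilobase. Cry1 (4.69), Per2 (4.35), Clock (2.80), Arntl (2.50) and Npas2 (0.579 CPM per kilobase) were lower. The output gene and the nuclear receptor repressors were thus counted at higher levels per length than the activators. From the lowest to the highest library, Dbp varied most, 4.49-fold, and Per2 (3.58-fold), Per3 (3.57-fold), Nr1d2 (3.33-fold) and Nr1d1 (3.01-fold) followed. Clock varied least, 1.52-fold, and Arntl (1.97-fold), Cry1 (1.97-fold) and Npas2 (1.89-fold) also stayed within a narrow range. KO PBS mouse 137 had the highest CPM of 7 of the 10 genes, which were Clock, Npas2, Per1, Per3, Nr1d1, Nr1d2 and Dbp.

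**Figure D1:**
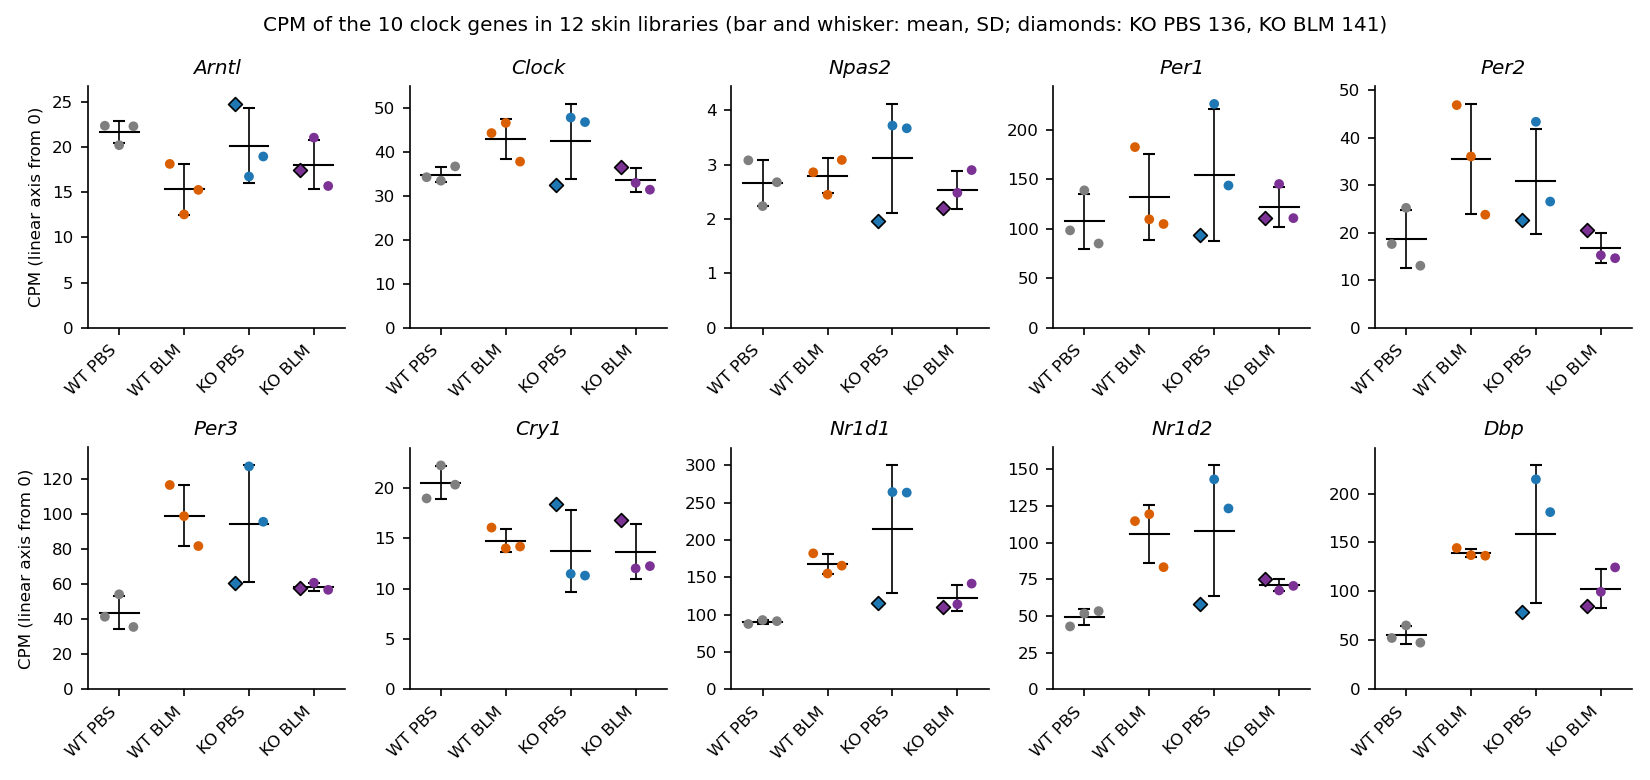
CPM (linear axis from 0) of each of the 10 clock genes in the 12 libraries, 1 point per mouse, with the group mean and SD (n = 3) as bar and whisker. Dbp, Nr1d1, Nr1d2 and Per3 lay lowest in WT PBS skin, and the diamonds for KO PBS 136 and KO BLM 141 show KO PBS 136 as the lowest KO PBS library for these 4 genes.

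The 10 genes lie on 7 chromosomes in GRCm38 (GENCODE M21), all of them protein coding. Per1 (chr11:69095217-69109960, plus strand) and Nr1d1 (chr11:98767932-98775333, minus strand) are both on chromosome 11. Arntl (chr7:113207465-113314126) and Dbp (chr7:45705088-45710203) are on the plus strand of chromosome 7, and Npas2 (chr1:39193731-39363236, plus strand) and Per2 (chr1:91415982-91459324, minus strand) are on chromosome 1. Clock (chr5:76209868-76304792), Per3 (chr4:151003652-151044665), Cry1 (chr10:85131700-85185064) and Nr1d2 (chr14:18204054-18239127) are each on the minus strand of a chromosome of their own. Overlaps with other genes bear on the counts, since the use of strand in counting was not given. The exons of Dbp share 539 bases, 18% of their length, with Sphk2 on the opposite strand, and those of Nr1d1 share 263 bases (8.55%) with Thra. Sphk2 (log2 fold change -0.12, SE 0.16) and Thra (-0.19, SE 0.12) did not pass the test between WT BLM and WT PBS skin in edgeR's quasi-likelihood test (adjusted p = 0.584 and 0.221).

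The promoters show which of these genes carry the letters that clock factors are known to bind close to their start. In the RefSeq promoter table (GRCm38.p6), 9 of the 10 genes were matched, with Per2 the exception. The 250 bases before each listed start were searched on both strands for the E-box (CACGTG, bound by the Arntl and Clock proteins), the E-prime box (CACGTT, which reads AACGTG on the other strand), the D-box (TTATGTAA or TTATGCAA, bound by the Dbp protein and its relatives), the core bound by the Nr1d1 and Nr1d2 proteins (TAGGTCA or TGGGTCA) and the cyclic AMP element (TGACGTCA). No match of 1 motif overlapped a match of another. Per1, Per3, Cry1 and Nr1d1 held a match, and the stretch around the matches is printed for these because the letters are those of the activator pair and of the Dbp family. Each is 5′ to 3′ on the strand of the gene, with the matches in capitals.
Per1 (chr11:69098763-69098943, plus strand), an E-box and a D-box that begin 166 and 24 bases before the start: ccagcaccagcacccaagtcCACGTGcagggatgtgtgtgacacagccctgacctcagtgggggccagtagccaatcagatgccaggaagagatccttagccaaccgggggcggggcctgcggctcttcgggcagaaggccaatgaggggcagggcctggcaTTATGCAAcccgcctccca
Per3 (chr4:151044796-151044890, minus strand), D-boxes that begin 205 and 158 bases before the start: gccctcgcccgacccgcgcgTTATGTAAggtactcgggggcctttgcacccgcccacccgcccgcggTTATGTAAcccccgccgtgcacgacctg
Cry1 (chr10:85185089-85185153, minus strand), an E-prime box and an E-box that begin 79 and 60 bases before the start: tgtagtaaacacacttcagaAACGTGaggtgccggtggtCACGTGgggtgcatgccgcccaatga
Nr1d1 (chr11:98775383-98775425, minus strand), an E-prime box that begins 28 bases before the start: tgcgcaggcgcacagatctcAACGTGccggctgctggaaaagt

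Of 32851 promoters in the table, 6.02% held the E-box, 3.85% the E-prime box, 1.5% the D-box, 5.38% the Nr1d1 and Nr1d2 core and 1.55% the cyclic AMP element in the same window. None of these letters were found within 250 bases of a listed start of Arntl, Clock, Npas2, Nr1d2 or Dbp. This says only that the letters are not in that window. Annotated exons covered 159 of the 250 bases of the Dbp window and up to 167 bases of a Clock window. They covered 60 bases or fewer of the windows of Arntl, Npas2 and Nr1d2. Per3, with its pair of D-boxes, and Nr1d1, with its E-prime box, were among the genes that rose with bleomycin in WT skin. So were Dbp and Nr1d2, which held no match. Per1, which holds both kinds of match, and Cry1, with both kinds of E-box, did not pass the test.

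WT BLM was compared with WT PBS skin to ask what bleomycin does in mice with Thy-1. Of the 10 clock genes, 4 were higher in WT BLM skin and 0 were lower. They were the output gene Dbp and the repressors Per3, Nr1d2 and Nr1d1, which rose 1.85- to 2.52-fold. Over all genes tested, 34.0% passed in this comparison, and 19.8% were higher in WT BLM skin, so 4 of 10 stands near the share that passed in either direction. The median log2 fold change of the 10 genes was 0.59, beside 0.018 over all genes tested, and 8 of the 10 values were above 0.

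Dbp encodes a PAR bZIP transcription factor that relays the clock to metabolic genes. Its CPM was 52.5, 65.4 and 47.8 in the WT PBS mice and 144, 137 and 137 in the WT BLM mice. The groups were apart by a wide gap, and the WT BLM mice lay close together. The difference was 1.34 on the log2 scale (SE 0.31, 95% interval 0.66 to 2.01, edgeR quasi-likelihood test, adjusted p = 0.0122).

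Per3, a period gene that the clock can run without, had 41.4, 54.2 and 35.6 CPM in WT PBS and 116, 98.7 and 81.6 CPM in WT BLM skin. Every WT BLM mouse was above every WT PBS mouse, with a log2 fold change of 1.18 (SE 0.25, edgeR adjusted p = 0.00996). Nr1d2, which encodes the REV-ERB beta receptor, had 42.9, 51.7 and 53.3 CPM in WT PBS and 115, 119 and 83.2 CPM in WT BLM skin. Its log2 fold change was 1.10 (SE 0.28, edgeR adjusted p = 0.0170), and the groups again did not overlap. Nr1d1, which encodes REV-ERB alpha, a direct repressor of Arntl, had 87.6, 92.9 and 91.4 CPM in WT PBS and 182, 155 and 166 CPM in WT BLM skin. The WT PBS values were within 6 CPM of each other, and the log2 fold change was 0.89 (SE 0.26, edgeR adjusted p = 0.0281).

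Per2, a repressor whose loss shortens the rhythm of mice, had 17.7, 25.3 and 13.1 CPM in WT PBS and 46.9, 36.1 and 23.8 CPM in WT BLM skin. WT BLM mouse 147 fell below WT PBS mouse 160, and the log2 fold change of 0.93 (SE 0.33) did not pass the test (edgeR adjusted p = 0.0503). Per1, a period gene that answers quickly to light and glucocorticoids, had 98.3, 139 and 85.1 CPM in WT PBS and 182, 109.5 and 105 CPM in WT BLM skin. Its groups overlapped, with a log2 fold change of 0.30 and a 95% interval of -0.43 to 1.03.

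Arntl and Cry1, which peak later than Dbp in the textbook cycle, lay lower in WT BLM skin in every mouse without passing the test. Arntl, which encodes BMAL1, the activator without which the clock stops, had 22.4, 20.2 and 22.3 CPM in WT PBS and 18.1, 12.6 and 15.3 CPM in WT BLM skin (log2 fold change -0.50, SE 0.19, edgeR adjusted p = 0.0618). Cry1, a strong blocker of the activator pair, had 18.9, 22.2 and 20.3 CPM in WT PBS and 16.1, 13.99 and 14.2 CPM in WT BLM skin (log2 fold change -0.47, SE 0.21, edgeR adjusted p = 0.0987). The groups did not overlap for either gene, nor for Clock, Per3, Nr1d1, Nr1d2 and Dbp, but 57.0% of all genes tested did not overlap between these groups.

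Clock, which encodes the partner of BMAL1, had 34.3, 33.5 and 36.7 CPM in WT PBS and 44.3, 46.6 and 37.8 CPM in WT BLM skin, a log2 fold change of 0.30 (SE 0.15, edgeR adjusted p = 0.144). Npas2, which can stand in for Clock, was the lowest gene of the list, at 3.08, 2.24 and 2.68 CPM in WT PBS and 2.86, 2.45 and 3.08 CPM in WT BLM skin. Its groups overlapped, with a log2 fold change of 0.070 and a 95% interval of -0.53 to 0.67.

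**Figure D2:**
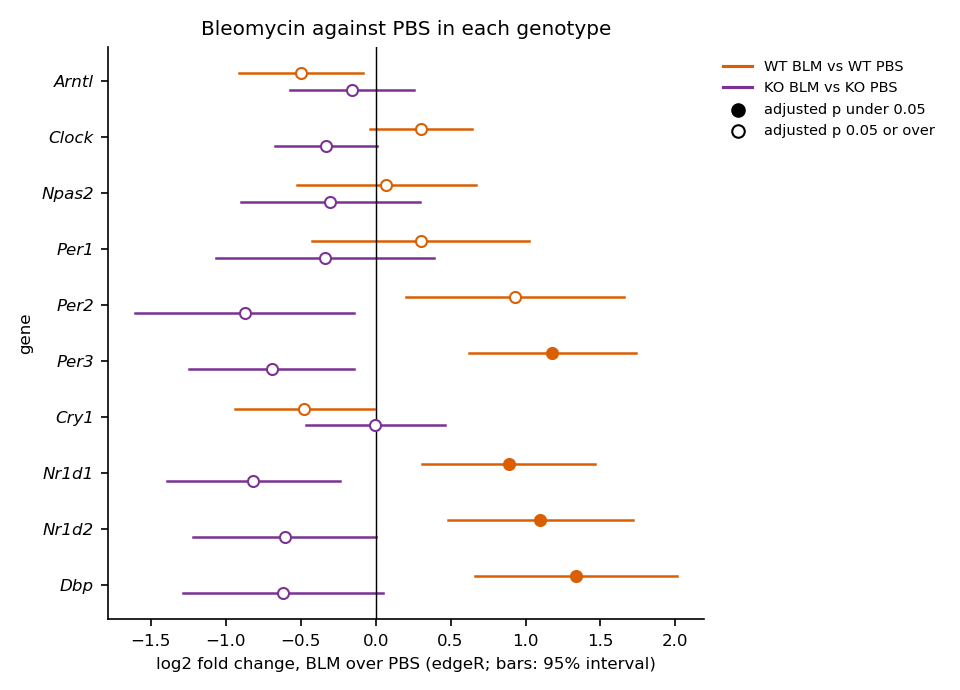
Log2 fold change of each clock gene, BLM over PBS, with its 95% interval from edgeR, in WT mice (orange) and Thy-1–KO mice (purple); filled points passed an adjusted p of 0.05. The 4 filled points are Per3, Nr1d1, Nr1d2 and Dbp in WT mice, and all 10 KO values lie below 0.

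The calls in WT skin changed with the libraries left out and when the growing-hair markers were added to the model. DESeq2 called 6 of the 10 (Arntl, Per2, Per3, Nr1d1, Nr1d2 and Dbp), where 34.7% of genes passed. Without WT PBS mouse 159 only Per3 still passed (14.0% of genes), without WT PBS mouse 160 only Per3 and Dbp did (13.9% of genes), and Nr1d1 no longer passed when any 1 of the 6 WT mice was left out. Without KO PBS mouse 136, which belongs to neither WT group, 8 of the 10 passed (45.7% of genes, with 18739 tested), with Arntl (log2 fold change -0.50) and Cry1 (-0.48) lower and Clock and Per2 higher. With KO BLM mouse 141 left out as well, 8 passed (49.0% of genes), and in a fit of only the WT groups 7 did (44.6%). The WT groups also differed in their growing-hair markers, all 19 of which had lower fitted values in WT BLM skin, 10 of them past the test. With the mean of these markers as a covariate, 0 of the 10 passed (0.0928% of genes), and Dbp kept a log2 fold change of 0.36, Per3 0.56 and Nr1d1 0.014. In WT mice the markers followed the treatment, so bleomycin and the state of the hair cannot be told apart. Macrophage markers (436 to 1017 CPM in sum in WT PBS and 2474 to 3602 in WT BLM) and fast skeletal muscle markers (5420 to 6096 and 18680 to 37650 CPM) were also higher in WT BLM skin, past the test for 10 of 11 and 11 of 12 listed genes. T cell markers (20.9 to 23.3 and 58.98 to 85.1 CPM, 6 of 7 past the test) and fibroblast markers (5987 to 8106 and 10830 to 34770 CPM, 4 of 7) were higher too, while melanocyte markers (1199 to 1572 and 48.04 to 116 CPM, 5 of 5) were lower. The part of these lists in the clock values was not tested. In bulk skin, fewer cells of a type and less RNA per cell cannot be told apart.

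**Figure D3:**
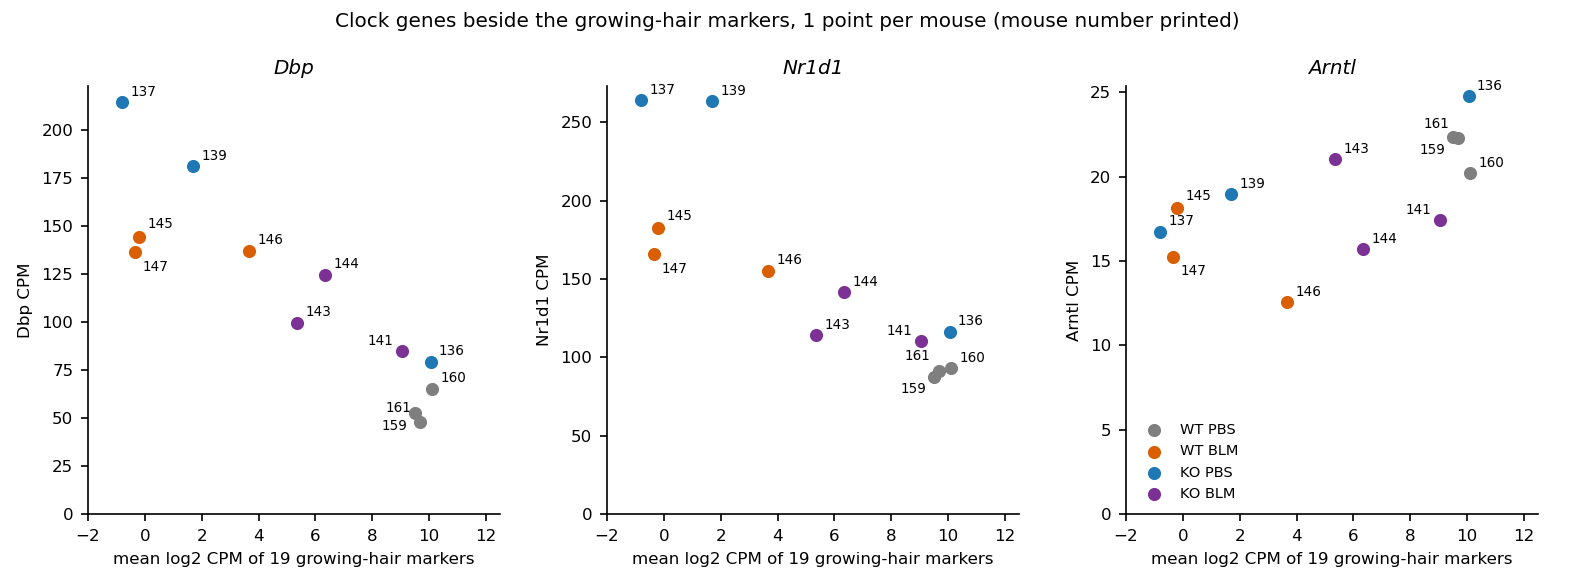
CPM of Dbp, Nr1d1 and Arntl against the mean log2 CPM of 19 growing-hair markers, 1 point per mouse with its number, colored by group. The 5 libraries with a marker mean above 9 (WT PBS 159, 160 and 161, KO PBS 136 and KO BLM 141) have the 5 lowest Dbp values; no line was fitted, since the libraries fall into clusters.

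KO BLM was compared with KO PBS skin to ask the same question in the mice labelled Thy1-knockout. None of the 10 clock genes passed edgeR's test, 3 had an unadjusted p under 0.05 (Per2, Per3 and Nr1d1), and DESeq2 called 0, where 0.306% and 5.95% of all genes passed in edgeR and DESeq2. All 10 log2 fold changes were below 0, with a median of -0.47, beside -0.0070 over all genes tested.

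Nr1d1 had 116, 264 and 264 CPM in KO PBS and 110.1, 114 and 142 CPM in KO BLM skin, with mouse 136 apart from the rest of its group and among the KO BLM mice. Its log2 fold change was -0.82 (SE 0.26, edgeR adjusted p = 0.156). Dbp had 79.4, 215 and 181 CPM in KO PBS and 84.9, 99.6 and 125 CPM in KO BLM skin, a log2 fold change of -0.62 (SE 0.30, edgeR adjusted p = 0.276). Mouse 136 was again the lowest of its group, below all 3 KO BLM mice.

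Nr1d2 showed the same order, with 58.2, 143 and 123 CPM in KO PBS and 75.2, 67.4 and 70.5 CPM in KO BLM skin (log2 fold change -0.61, SE 0.28, edgeR adjusted p = 0.252). Per3 had 60.8, 127 and 95.5 CPM in KO PBS and 57.7, 60.8 and 56.7 CPM in KO BLM skin, where KO PBS 136 and KO BLM 143 were apart by less than 1 CPM (log2 fold change -0.69, SE 0.25, edgeR adjusted p = 0.176). Per2 had 22.6, 43.4 and 26.6 CPM in KO PBS and 20.5, 15.3 and 14.7 CPM in KO BLM skin, also without overlap (log2 fold change -0.87, SE 0.33, edgeR adjusted p = 0.186). Groups without overlap were seen for these 2 period genes and for 19.3% of all genes tested.

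Per1 had 93.7, 226 and 144 CPM in KO PBS and 111, 145 and 111 CPM in KO BLM skin, so the KO PBS values reached below and above the other group. Cry1 had 18.4, 11.5 and 11.3 CPM in KO PBS and 16.8, 12 and 12.2 CPM in KO BLM skin, and in each group the mouse with the highest growing-hair markers (136 and 141) had the highest Cry1. Arntl had 24.8, 16.7 and 18.95 CPM in KO PBS and 17.4, 21.03 and 15.7 CPM in KO BLM skin, with overlap of the groups and a 95% interval of the log2 fold change of -0.57 to 0.25. The activators Clock (32.5, 47.8 and 46.8 CPM in KO PBS and 36.6, 32.97 and 31.4 CPM in KO BLM skin) and Npas2 (1.96, 3.72 and 3.67 and 2.20, 2.48 and 2.90 CPM) had their lowest KO PBS value in mouse 136 too.

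Without KO PBS mouse 136, which leaves 2 KO PBS mice, 5 of the 10 genes were lower in KO BLM skin, where 14.0% of all genes passed. They were Nr1d1 (log2 fold change -1.11, edgeR adjusted p = 0.00623), Dbp (-0.94, adjusted p = 0.0140), Per3 (-0.93, adjusted p = 0.0211), Nr1d2 (-0.91, adjusted p = 0.0127) and Clock (-0.49, adjusted p = 0.0261). Arntl (0.016) and Cry1 (0.27) then lay above 0, so 8 of the 10 were below 0. With KO BLM mouse 141 left out as well, 6 passed (22.3% of genes). Mouse 136 also stood apart from KO PBS mice 137 and 139 in the summed markers of muscle (6891 against 28200 and 24780 CPM), fibroblasts (5593 against 18450 and 14770 CPM), macrophages (459 against 2237 and 1708 CPM) and melanocytes (639 against 82.2 and 76.5 CPM). The part of these lists in its clock values was not tested. With the growing-hair covariate and all 12 libraries, 0 passed (9.10% of genes) and the values of Nr1d1 (-0.40) and Dbp (-0.14) were nearer to 0.

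**Figure D4:**
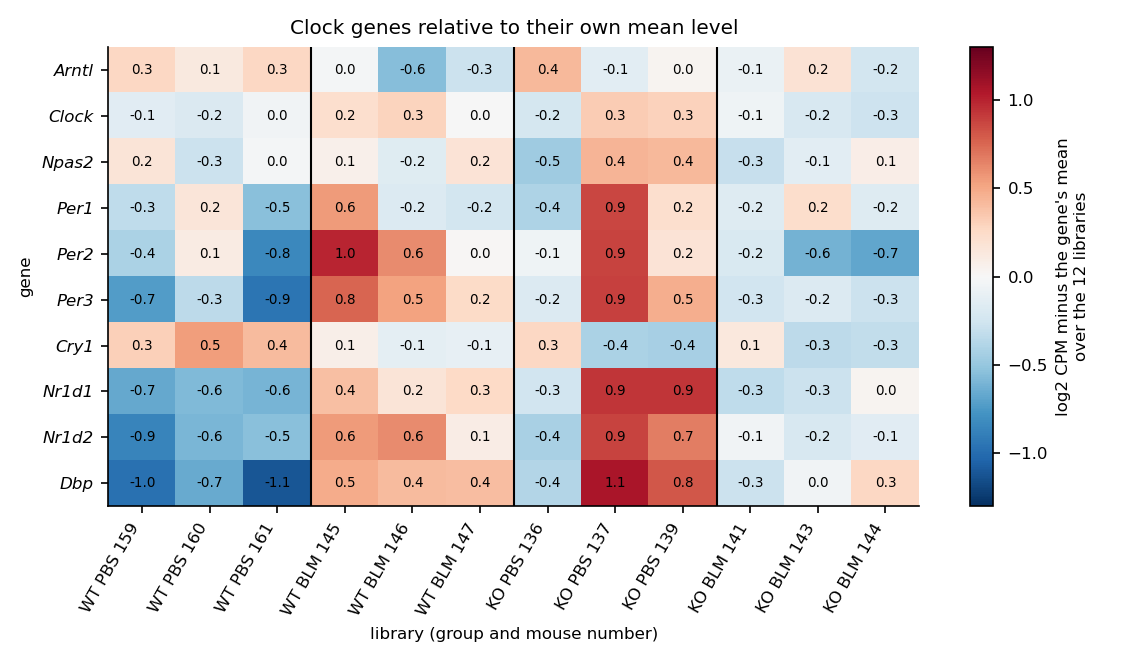
Log2 CPM of each clock gene in each library minus that gene's mean over the 12 libraries, in log2 units (red above, blue below; columns are mice by group). Per3, Nr1d1, Nr1d2 and Dbp are red in all 3 WT BLM libraries and in KO PBS 137 and 139, and blue in all 3 WT PBS libraries and in KO PBS 136, where Cry1 is red.

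KO PBS was compared with WT PBS skin to ask how the genotypes differ without bleomycin. Dbp, Nr1d1, Nr1d2 and Per3 were higher in all 3 KO PBS mice than in any WT PBS mouse, but no clock gene passed edgeR's test, where 0.0655% of all genes did. DESeq2 called those 4 genes, where 3.69% of genes passed, and 5 had an unadjusted p under 0.05 in edgeR, which were the same 4 and Cry1. The difference was 1.52 on the log2 scale for Dbp (SE 0.31, edgeR adjusted p = 0.169), 1.24 for Nr1d1 (SE 0.26, adjusted p = 0.183), 1.13 for Nr1d2 (SE 0.28, adjusted p = 0.194) and 1.11 for Per3 (SE 0.25, adjusted p = 0.194). Cry1 was lower in all 3 KO PBS mice (-0.58, SE 0.21, adjusted p = 0.211). Groups did not overlap for 18.9% of all genes tested.

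The values within KO PBS skin were uneven. Mouse 136 had 79.4 CPM of Dbp and 116 CPM of Nr1d1, between the WT PBS mice and its own group, apart in its hair, muscle, fibroblast, macrophage and melanocyte markers as well, and mice 137 and 139 had 215 and 181 CPM of Dbp. Without mouse 136, 6 of the 10 passed, where 36.7% of all genes did. Clock (0.44), Per3 (1.35), Nr1d1 (1.54), Nr1d2 (1.43) and Dbp (1.84) were then higher in KO PBS skin and Cry1 (-0.85 on the log2 scale) was lower. With KO BLM mouse 141 left out as well, the count was also 6 (40.9% of genes), and with the growing-hair covariate it was 0 (0.0546%).

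KO BLM was compared with WT BLM skin to ask how the genotypes differ under bleomycin. No clock gene passed edgeR's test, where 0.0928% of genes did, and DESeq2 called 0, where 2.99% did, while 3 had an unadjusted p under 0.05 (Clock, Per2 and Per3). Of the 10 values, 9 were below 0, with Arntl (0.24, 95% interval -0.18 to 0.65) the exception. The KO BLM mice were all below the WT BLM mice for Clock, Per2, Per3, Nr1d1, Nr1d2 and Dbp, and groups did not overlap for 27.5% of all genes. The largest of these differences were Per2 (-1.08, SE 0.33, edgeR adjusted p = 0.235) and Per3 (-0.76, SE 0.25, adjusted p = 0.245). Without KO PBS mouse 136, which is in neither group, Per3, Nr1d1 and Nr1d2 passed as lower in KO BLM skin, where 6.89% of genes passed. With KO BLM mouse 141 left out as well, 0 passed (4.36% of genes). With the growing-hair covariate 0 passed (0.126% of genes), the value of Dbp was 0.21 where it had been -0.44, and the value of Nr1d1 was 0.13, above 0 where it had been -0.46 without the covariate.

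The order of the group means was the same for Dbp, Nr1d1 and Nr1d2, with WT PBS lowest, then KO BLM, then WT BLM, and KO PBS highest. For Dbp the means were 55.2 ± 9.11 CPM (SD, n = 3) in WT PBS, 103 ± 20.1 CPM in KO BLM, 139 ± 4.42 CPM in WT BLM and 158 ± 70.4 CPM in KO PBS skin. The KO PBS values spanned those of KO BLM and WT BLM skin, so its place at the top rests on mice 137 and 139. For Nr1d1 the means were 90.7 ± 2.73, 122 ± 17.2, 168 ± 13.6 and 215 ± 85.2 CPM in the same order. For Nr1d2 they were 49.3 ± 5.61, 71.02 ± 3.92, 106 ± 19.6 and 108 ± 44.3 CPM, and for these genes too only the gap between WT PBS and WT BLM skin passed edgeR's test. Per3 put KO PBS (94.4 ± 33.1 CPM) just below WT BLM (98.9 ± 17.4 CPM), a difference within the spread of either group.

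Whether bleomycin acted differently in the genotypes was tested as an interaction, the log2 response of KO mice minus that of WT mice. No clock gene passed edgeR's test, and 0 of all genes (0%) did, while 6 of the 10 had an unadjusted p under 0.05 (Clock, Per2, Per3, Nr1d1, Nr1d2 and Dbp). The estimates were -1.96 for Dbp (SE 0.43, edgeR adjusted p = 0.0702), -1.87 for Per3 (SE 0.35, adjusted p = 0.0702), -1.81 for Per2 (SE 0.47, adjusted p = 0.0715), -1.71 for Nr1d2 (SE 0.39, adjusted p = 0.0702) and -1.70 for Nr1d1 (SE 0.37, adjusted p = 0.0702). These 5 genes had estimates above 0 in WT skin and below 0 in KO skin. DESeq2 called the same 5 genes, where 17.8% of genes passed.

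The remaining members had interaction estimates of -0.63 (Clock, SE 0.22), -0.64 (Per1, SE 0.46), -0.37 (Npas2, SE 0.38), 0.34 (Arntl, SE 0.26) and 0.47 (Cry1, SE 0.30). Without KO PBS mouse 136, 7 of the 10 passed, where 39.9% of all genes did, with Dbp at -2.27, Per3 at -2.10, Cry1 at 0.75 and Clock at -0.79. With KO BLM mouse 141 left out as well, the count was again 7 (38.6% of genes). With the growing-hair covariate 0 passed (0% of genes), Dbp stood at -0.50 and Per3 at -0.95, and the signs of Npas2 (0.74), Per1 (0.67) and Cry1 (-0.28) turned. The growing-hair markers stood differently in the genotypes as well, with a lower sum in all 3 WT BLM mice than in any WT PBS mouse, but with 1 high value (75960 CPM) and 2 low values (44.7 and 208 CPM) among KO PBS mice and 3601 to 36110 CPM in KO BLM mice. Their part in the interaction was not tested beyond that covariate.

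**Figure D5:**
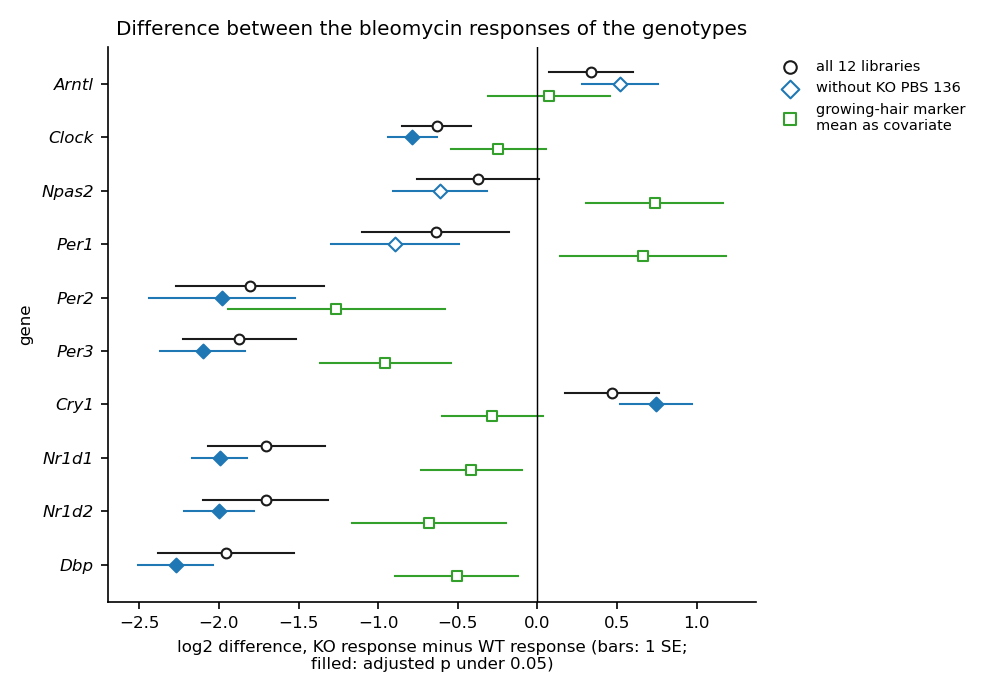
Difference between the bleomycin responses (KO minus WT, log2 units, bars are 1 SE) of each clock gene with all 12 libraries, without KO PBS 136, and with the growing-hair marker mean as a covariate; filled symbols passed an adjusted p of 0.05. The period, REV-ERB and Dbp estimates lie between -2.27 and -0.41 in all 3 fits except for Per1, and filled symbols appear only without KO PBS 136.

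How the clock genes moved together was described over the 12 libraries, which include the group differences, with no test. In log2 CPM, Dbp ran with Nr1d1 (Pearson r = 0.95, Spearman rho = 0.97), Nr1d2 (r = 0.93) and Per3 (r = 0.93), and against Cry1 (r = -0.84) and Arntl (r = -0.63). After each library was centered on its group mean, the r of Dbp was 0.94 with Nr1d1, 0.81 with Nr1d2, -0.78 with Cry1 and -0.66 with Arntl. Mouse 136 stood apart within KO PBS skin, with a log2 CPM of Dbp of 6.31 against 7.75 and 7.50 in mice 137 and 139. For Nr1d1 the values were 6.86 against 8.05 and 8.04. The correlations were not computed without mouse 136, so its share in them is not known here. Dbp and Arntl run opposite to each other in the textbook cycle, and libraries of a group also share their treatment, their genotype and, in WT mice, the state of their hair markers.

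The other genes of the clock were taken from a list of 26, all of them tested. In WT BLM against WT PBS skin, 7 were higher and 2 lower in edgeR, a share close to the 34.0% of all genes called there, with a median log2 fold change of 0.16. Both relatives of Dbp on the list, Hlf (1.40, SE 0.40, edgeR adjusted p = 0.0255) and Tef (1.05, SE 0.27, adjusted p = 0.0173), were higher. Hlf had 19, 24.9 and 22.9 CPM in WT PBS and 85.04, 36.3 and 54.7 CPM in WT BLM skin. Nfil3, the repressor that competes with the Dbp family for the D-box, was lower by the widest margin of the list, with 69.8, 68.2 and 60.9 CPM in WT PBS and 19.9, 17.5 and 17.9 CPM in WT BLM skin (-1.85, SE 0.53, adjusted p = 0.0262).

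Among activators, Arntl2, the paralog of Arntl, rose (1.16, edgeR adjusted p = 0.0202). Rorb fell (-1.15, adjusted p = 0.0451), at under 1 CPM in every library. Among repressors, Bhlhe40, which encodes DEC1, rose (1.13, adjusted p = 0.00765), and so did Cry2, the paralog of Cry1 (0.59, adjusted p = 0.0363). Btrc, which encodes a ubiquitin ligase subunit that marks PER proteins for decay (0.78, adjusted p = 0.0163), and Tspan4 (0.90, adjusted p = 0.0306) completed the 7. With the growing-hair marker mean as a covariate, none of the higher or lower genes of this list still passed, where 0.0928% of all genes did.

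In the other 4 contrasts, edgeR called 0 of the 26 genes, with 5 (KO BLM against KO PBS), 10 (KO PBS against WT PBS), 3 (KO BLM against WT BLM) and 12 (interaction) at an unadjusted p under 0.05. DESeq2 called 1 (Bhlhe40), 2 (Tef and Hlf), 0 and 5 in the same order, where 5.95%, 3.69%, 2.99% and 17.8% of all genes passed. In KO PBS skin Nfil3 was highest in the mouse with the lowest Dbp, at 80.2 CPM in KO PBS 136 against 13.8 and 24.1 CPM in KO PBS 137 and 139. In KO BLM skin Nfil3 was highest in mouse 141, at 46.5 CPM against 24.96 and 25.3 CPM in mice 143 and 144. Mice 136 and 141 also had the highest growing-hair markers of their groups. Bhlhe40 did not follow Dbp, with 78.1, 86.6 and 75.5 CPM in KO PBS skin, where mouse 136 was not apart, and 117, 195 and 222 CPM in KO BLM skin (1.15, SE 0.22, edgeR adjusted p = 0.0585).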

How the data were processed

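Skin RNA was sequenced by the authors as stranded mRNA libraries, and the deposited file holds their raw read counts per gene, without normalization. The submitters' processing notes name GRCm38.p6 and MultiQC 1.7. The aligner, counting tool, annotation and use of strand were not given in the sources used here, and the authors tested with DESeq2. The 10 members and all gene lists were chosen with earlier results of these data known, and no list was tested as a set.

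Counts of 18311 genes kept by filterByExpr (at least 10 counts after scaling, 15 in total) were scaled by TMM, and edgeR 4.0.16 (R 4.3.3) was run as a quasi-likelihood model of 4 group means, adjusted by Benjamini-Hochberg over all genes at a threshold of 0.05. CPM uses TMM-scaled totals, and log2 CPM a prior count of 2. The p-values measure only the spread between the mice deposited. The steps were tested on simulated data. Exon lengths and overlaps came from GENCODE M21 and promoters from RefSeq. Alternatives were DESeq2 1.42.0, other normalizations and filters, each mouse left out, mice 136 and 141 left out, and a growing-hair covariate. Named genes were all members, genes of the other clock and response lists called in any contrast, and the 5 genes most like and most unlike Arntl and Dbp. Named outside this rule were Thy1, the overlapping genes Sphk2 and Thra, and Fosb, which was called in no contrast. Krt85 was not analysed here, and some of the other clock genes first listed are not reported here.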

Additional observations from a re-analysis of the deposited data

How the results depend on the processing

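The counts of clock genes past the threshold moved as follows. In WT BLM against WT PBS skin, where 4 passed, 7 passed in a fit of only those groups (44.6% of all genes passed), 8 with KO PBS 136 and KO BLM 141 both left out (49.0%), and 0 with the growing-hair marker mean as a covariate (0.0928%). With single mice left out the count ran from 1 to 8, where 13.9% to 45.7% of all genes passed. In KO BLM against KO PBS skin, where 0 passed, 6 passed with both of these mice left out (22.3% of all genes), and 0 to 5 with single mice left out (0% to 14.0%). In KO PBS against WT PBS skin, where 0 passed, DESeq2 called 4 (3.69% of all genes), leaving out both mice gave 6 (40.9%), and single mice gave 0 to 6 (0.032% to 36.7%). In KO BLM against WT BLM skin single mice gave 0 to 3 (0.0267% to 6.89%). For the interaction, where 0 passed, DESeq2 called 5 (17.8% of all genes), leaving out both mice gave 7 (38.6%), and single mice gave 0 to 7 (0% to 39.9%). In the last 4 contrasts, every count above 0 with a single mouse left out came without KO PBS 136. The cause of these shifts was not tested. RLE or upper-quartile normalization, no filter and a filter of 1 CPM left each count within 1.5 times its value.

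Over the alternatives, the log2 fold changes of the 10 clock genes in all 5 contrasts kept their direction and side of the threshold 884 times, no longer passed 13 times, newly passed 66 times and turned direction 27 times. The other listed genes, in the contrasts where edgeR called them, kept both 188 times and no longer passed 71 times. With the growing-hair covariate, values turned in WT BLM against WT PBS (Npas2 -0.70, Per1 -0.60, Cry1 0.094), KO BLM against KO PBS (Npas2 0.037, Per1 0.067), KO PBS against WT PBS (Arntl 0.026, Npas2 -0.36, Per1 -0.18), KO BLM against WT BLM (Npas2 0.37, Per1 0.48, Nr1d1 0.13, Dbp 0.21) and the interaction (Npas2 0.74, Per1 0.67, Cry1 -0.28). With both mice left out, Arntl (0.040) and Cry1 (0.090) turned in KO BLM against KO PBS. With single mice left out, values spanned 0 for Npas2 (-0.12 to 0.17) and Per1 (-0.0054 to 0.45) in WT BLM against WT PBS, for Arntl (-0.28 to 0.016), Per1 (-0.60 to 0.039) and Cry1 (-0.17 to 0.27) in KO BLM against KO PBS, for Arntl in KO PBS against WT PBS (-0.28 to 0.017) and for Per1 in KO BLM against WT BLM (-0.25 to 0.19). No turned value passed the test. No paired analysis was possible because every mouse has its own number. With 3 mice in a group, at 1 unstated hour each, no phase can be read from these levels.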

Other observations

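Hormone and early response genes were read from a list of 17 genes, 8 induced by glucocorticoids and 9 immediate early genes. In WT BLM against WT PBS skin, edgeR called 1 higher, Zbtb16, and 2 lower, the metallothioneins Mt1 and Mt2, where 34.0% of all genes were called. Zbtb16, which encodes the PLZF repressor, had 10.3, 19.1 and 7.06 CPM in WT PBS and 51.3, 40.9 and 17.7 CPM in WT BLM skin (1.60 on the log2 scale, SE 0.55, edgeR adjusted p = 0.0455), with 1 WT BLM mouse inside the WT PBS range. In KO PBS skin it had 32.1, 84.7 and 62.4 CPM, highest in the mice with the highest Dbp, and 27.4, 11.7 and 10.9 CPM in KO BLM skin. Mt2, which binds zinc and copper, had 316, 214 and 284 CPM in WT PBS, 129.5, 71.9 and 91.3 in WT BLM, 131, 90.5 and 68.4 in KO PBS and 235, 193 and 209.7 CPM in KO BLM skin. It fell in WT BLM skin (-1.48, SE 0.27, edgeR adjusted p = 0.00652), as did Mt1 (-0.93, SE 0.19, adjusted p = 0.00828). With the growing-hair covariate Zbtb16, Mt1 and Mt2 no longer passed, where 0.0928% of all genes did.

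In the other 4 contrasts edgeR called 0 of these 17 genes, with 9 (KO BLM against KO PBS), 7 (KO PBS against WT PBS), 4 (KO BLM against WT BLM) and 8 (interaction) at an unadjusted p under 0.05. DESeq2 called 5, 5, 2 and 5 in the same order, where 5.95%, 3.69%, 2.99% and 17.8% of all genes passed, and Mt1 and Mt2 were among them each time. Of the 8 glucocorticoid-induced genes, 6 were above 0 in KO PBS against WT PBS skin (median 0.76) and 5 in WT BLM against WT PBS skin (median 0.40). In KO BLM skin 2 were above 0 against KO PBS (median -0.51) and 5 against WT BLM (median 0.028). The 9 immediate early genes had 0 calls in edgeR in every contrast. Their values were all above 0 in KO BLM against KO PBS skin, with a median of 0.90. In WT BLM against WT PBS skin 5 were above 0 and 4 below, and the median of 1.03 was the lowest of the values above 0. The interaction estimate, the KO response minus the WT response, was above 0 for 8 of the 9 genes and below 0 for 1, with a median of 1.13. Against WT skin of the same treatment, 1 was above 0 in KO PBS (median -0.43) and 8 in KO BLM (median 0.49). Within KO BLM skin each of these genes was highest in mouse 143, with Fosb at 141.6 CPM there against 9.43 and 5.69 CPM in mice 141 and 144.

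The genes most like Dbp over the 12 libraries, among 13828 genes whose log2 CPM averaged 1 or more, were N4bp2l1 (Pearson r = 0.96), Smarcd3 (0.95), Abcd4 (0.95), Meis2 (0.95) and Gatd3a (0.95), and the most unlike were Mex3a (-0.98), Mapre1 (-0.98), Hmgb3 (-0.97), L3mbtl2 (-0.97) and Mtbp (-0.97). In all, 616 genes had an r of at least 0.9 in size with Dbp. For Arntl only 23 genes had an r of that size. The most like Arntl were Adgrl2 (0.92), Paqr5 (0.92), Yap1 (0.91), Shtn1 (0.91) and Lpar3 (0.91). The most unlike were Cdh5 (-0.94), Notch4 (-0.93), Lhx6 (-0.93), Fam171a1 (-0.92) and Mecom (-0.92). These are descriptions over 12 libraries that share groups and hair markers, with no test.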
